A study of Mus musculus with 71 samples.

Results

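The RNA of the 6 clock repressors Per1, Per2, Per3, Cry1, Cry2 and Ciart was followed in mouse whole brain over 4 times of day, with and without sleep loss. The members were all probe sets whose platform gene symbol, updated through its Entrez ID, is 1 of these 6 names. They came to 13 of 45037 probe sets tested: 1 each for Per1, Cry1, Cry2 and Ciart, 3 for Per2 and 6 for Per3. Of the 6 Per3 probe sets, the platform annotation gives Per3's RefSeq mRNA as the design target for 3 (1421087_at, 1460662_at and 1421086_at) and not for the other 3 (1458176_at, 1441445_at and 1442243_at). No probe set of Per1, Per2, Cry1, Cry2 or Ciart has its gene's RefSeq mRNA as the annotated target either. The lack of such a target does not say that a probe set misses the gene's mRNA. Where a single probe set stands for a gene, it is the one of highest mean level, 1417602_at for Per2 and 1421087_at for Per3.

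The mice were inbred males of DBA/2J, C57BL/6J or AKR/J background, 3 strains in all, aged 12 to 13 weeks, with no other genotype or agent named in the labels. Sleep-deprived mice were kept awake for 6 h up to sacrifice at ZT0, ZT6, ZT12 or ZT18, so that deprivation began at ZT18, ZT0, ZT6 or ZT12 respectively, and controls stayed in the home cage and were killed at the same times. ZT counts the hours since the lights came on, and the lights went off at ZT12. Each of 71 Affymetrix arrays (36 control, 35 sleep deprived) carried RNA pooled from 3 mice of 1 of 24 groups. There were 3 arrays in 23 groups and 2 in sleep-deprived AKR/J at ZT18. With 9 mice per group the arrays of a group were different pools, so the spread behind each p-value is that between pools.

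In the mammalian clock the activators CLOCK and BMAL1 bind E-box sequences and switch on the period and cryptochrome genes, whose proteins form a complex that enters the nucleus and shuts the activators off again. PER1 and PER2 carry the complex and their genes also respond directly to neuronal activity, cyclic AMP and glucocorticoids, while PER3 has a weaker role in timing. CRY1 and CRY2 are the main transcriptional brakes within the complex, and CIART (also called CHRONO) is a further repressor that binds the activators and is itself driven through E-boxes. In brain, RNA of the period genes is known to be raised by wakefulness, and clock gene mutants have altered sleep.

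Values are deposited log2 levels, on which a difference of 1 is a doubling. A probe set is called where limma's moderated test gave an adjusted p under 0.05 over all 45037 probe sets. A set of 6 arrays stood apart on 15 spike-in control probe sets, at a mean of -0.475 to -0.293 against -0.102 to 0.245 in the others (log2 units from each probe set's mean over all arrays). These were 1 array each of control AKR/J at ZT0 and ZT6, control C57BL/6J at ZT0 and sleep-deprived C57BL/6J at ZT0, and 2 of sleep-deprived C57BL/6J at ZT6. The mean level of 6 neuronal marker genes ranged from 12 to 12.4 over control arrays and from 12 to 12.3 over sleep-deprived arrays. That of 5 astrocyte markers ranged from 10.1 to 10.5 and from 10.1 to 10.4. For 6 markers of the suprachiasmatic nucleus and hypothalamus, the site of the master clock, the ranges were 6.42 to 6.86 and 6.48 to 6.82, and 2 of the 6 were called higher after sleep deprivation, Vip (0.20) and Rgs16 (0.13). Of 4 oligodendrocyte markers 2 were called lower, Mog (-0.12) and Mag (-0.10), and of 5 endothelial markers 2, Slco1a4 (-0.25) and Cldn5 (-0.07). At ZT6, 3 of the 5 endothelial markers were called lower, with a median of -0.166 over the list. Microglial markers had 1 of 5 called higher, Tmem119 (0.12), and 1 lower, P2ry12 (-0.16), with 2 lower at ZT12, and neuronal markers 1 of 6 higher, Nefl (0.05), and 1 lower, Syt1 (-0.05). Of 6 pituitary hormone genes none was called, although these varied widely between arrays of both conditions (5.2 to 9.99 and 5.17 to 9.67). Of 5 choroid plexus markers 1 was called higher, of 4 cerebellar markers 1 lower and of 4 olfactory bulb markers 1 higher. Averaged over strains and times, 8.31% of all probe sets were called higher and 9% lower. In either direction 10.4% were called at ZT6 and 9.75% at ZT12. The part of these cells and regions in the results was not tested.

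The bases just upstream of the transcription starts are shown for the 4 genes that hold an E-box or a D-box there, elements that clock factors are known to bind. A window was found for 5 of the 6 genes (Per1, Per3, Cry1, Cry2 and Ciart, with 2 starts for Per1). The letters searched on both strands were the E-box CACGTG, bound by CLOCK and BMAL1, its variant CACGTT, the D-box TTATGTAA, bound by DBP, TEF, HLF and NFIL3, the cyclic AMP response element TGACGTCA with its part TGACG, and the inverted-repeat glucocorticoid response element. Sequences are from RefSeq on GRCm38.p6, 250 bases ending at the base before the start, written 5′ to 3′ on the gene's strand, with matches to the E-box, its variant or the D-box in capitals.

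Ciart, chr3:95882229-95882478, minus strand: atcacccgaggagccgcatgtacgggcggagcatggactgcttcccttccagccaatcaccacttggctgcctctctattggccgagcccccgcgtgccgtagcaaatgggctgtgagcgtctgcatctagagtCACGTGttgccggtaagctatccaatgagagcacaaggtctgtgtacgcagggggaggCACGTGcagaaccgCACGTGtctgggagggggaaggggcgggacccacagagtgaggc
Cry1, chr10:85185055-85185304, minus strand: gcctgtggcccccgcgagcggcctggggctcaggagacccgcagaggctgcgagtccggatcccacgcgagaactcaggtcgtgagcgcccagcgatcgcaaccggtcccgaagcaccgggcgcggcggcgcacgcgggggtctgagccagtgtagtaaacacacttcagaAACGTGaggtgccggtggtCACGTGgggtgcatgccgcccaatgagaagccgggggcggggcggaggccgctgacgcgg
Per1, first start, chr11:69098699-69098948, plus strand: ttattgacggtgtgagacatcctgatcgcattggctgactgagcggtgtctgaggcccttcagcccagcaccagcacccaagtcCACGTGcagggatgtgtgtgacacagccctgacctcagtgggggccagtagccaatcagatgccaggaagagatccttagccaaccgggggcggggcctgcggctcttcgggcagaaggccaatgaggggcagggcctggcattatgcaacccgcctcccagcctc
Per3, chr4:151044666-151044915, minus strand: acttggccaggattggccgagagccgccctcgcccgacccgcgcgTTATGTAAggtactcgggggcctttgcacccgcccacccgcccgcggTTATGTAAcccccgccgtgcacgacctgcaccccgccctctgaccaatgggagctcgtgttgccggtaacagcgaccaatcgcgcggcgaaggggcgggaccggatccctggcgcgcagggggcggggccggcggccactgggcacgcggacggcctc

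The Ciart window holds 3 E-boxes, whose first bases lie 116, 58 and 44 bases before the start. At least 3 E-boxes occur in 0.0609% of the 32851 windows of this length in the table (all annotated starts), and at least 1 in 6.02%. Cry1 has an E-box at 60 bases and the variant at 79 bases before the start, Per1 an E-box at 166 bases before its first start, and Cry2 the variant alone, at 166 bases. The variant occurs in 3.85% of all windows. Per3 has no E-box in its window but a D-box at 205 and another at 158 bases before the start, and at least 2 D-boxes occur in 0.0183% of windows against 0.819% with at least 1. None of the 6 windows holds TGACGTCA (1.55% of windows) or the glucocorticoid element (0.00913%). The short form TGACG is in 4 of the 6, both Per1 starts, Cry1 and Cry2, and in 17.8% of all windows. A match describes these letters and was not tested as a site of binding.

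In undisturbed mice every one of the 13 probe sets varied with time of day, against 11.7% of all probe sets (limma F test over the 4 times, averaged over strains). Ciart and Per2 had the widest daily ranges. Being measured in whole brain, fewer cells of a type and less RNA per cell cannot be told apart in any of these values. Between single pairs of times, the share of all probe sets called in controls was 4.01% for ZT6 against ZT0, 5.86% for ZT12 against ZT0, 1.08% for ZT18 against ZT0, 0.58% for ZT12 against ZT6, 9.64% for ZT18 against ZT6 and 7.27% for ZT18 against ZT12. The control levels of Per2 on 1417602_at (lowest, median and highest of 9 arrays, 3 per strain) were 6.79, 6.96 and 7.15 at ZT0, 6.11, 6.37 and 6.62 at ZT6, 7.02, 7.34 and 7.67 at ZT12, and 7.51, 7.66 and 8.12 at ZT18. All arrays at ZT6 were thus below all arrays of the other 3 times, and the mean rose 2.53-fold from ZT6 to its highest point at ZT18 (log2 difference 1.34, adjusted p = 3.95e-25). Every neighbouring pair in the order ZT18, ZT12, ZT0, ZT6 differed beyond its spread, with adjusted p of 6.37e-05 for ZT18 against ZT12, 8.92e-07 for ZT12 against ZT0 and 1.17e-10 for ZT0 against ZT6.

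Per1 had the same low point but moved over a smaller range. Its control arrays ran from 7.31 through a median of 7.72 to 8.16 at ZT0, from 7.17 through 7.55 to 8.01 at ZT6, from 7.65 through 7.99 to 8.15 at ZT12, and from 7.59 through 7.85 to 8.06 at ZT18. The times overlapped, and the called differences were those of ZT12 and ZT18 from ZT6 (0.39, adjusted p = 0.018, and 0.29, adjusted p = 0.030). Levels of Per1 were high in the arrays that stood apart on the spike-in controls: 8.16 and 8.01 in control AKR/J at ZT0 and ZT6, 8.16 and 8.12 in control and sleep-deprived C57BL/6J at ZT0, and 8.31 and 8.08 in sleep-deprived C57BL/6J at ZT6. Each of the 6 was above the remaining arrays of its own group.

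Per3 was highest at ZT12 and lowest at ZT0 on all 6 probe sets, with daily ranges from 0.31 (1421086_at) to 0.79 (1458176_at) log2 units. The strains lie far apart on most of these probe sets, and their values are given by strain further on.

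Of the cryptochromes, Cry1 had the later and larger rhythm. Its control arrays (lowest, median, highest) were at 7.45, 7.68 and 7.84 at ZT0, 6.89, 7.05 and 7.34 at ZT6, 7.33, 7.52 and 7.68 at ZT12, and 7.61, 7.89 and 8.0 at ZT18. The arrays at ZT18 were all above those at ZT6, a mean difference of 0.77 (1.71-fold, adjusted p = 1.97e-17). ZT18 and ZT0 did not differ beyond their spread (0.17, adjusted p = 0.092), nor did ZT0 and ZT12 (adjusted p = 0.23), while ZT12 lay above ZT6 by 0.49 (adjusted p = 1.77e-09).
Cry2 kept close to 1 level, from a median of 8.62 at ZT6 to 8.78 at ZT12, and its mean range was 1.12-fold. ZT12 and ZT18 lay above ZT6 by 0.16 (adjusted p = 0.024) and 0.12 (adjusted p = 0.037), and no other pair of times was called.

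Ciart had the widest range of the 6 genes in controls, 2.65-fold, and a high point at ZT12. Its control arrays were at 5.92, 6.27 and 6.57 at ZT0, 6.82, 6.94 and 7.18 at ZT6, 7.47, 7.71 and 8.04 at ZT12, and 6.36, 6.67 and 7.0 at ZT18 (lowest, median, highest). All 9 arrays at ZT12 were above all others and all 9 at ZT0 were below those of ZT6 and ZT12. Each pair of times was called, from ZT12 against ZT0 (1.41, adjusted p = 9.92e-27) to ZT18 against ZT6 (-0.25, adjusted p = 0.0022).

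**Figure D1:**
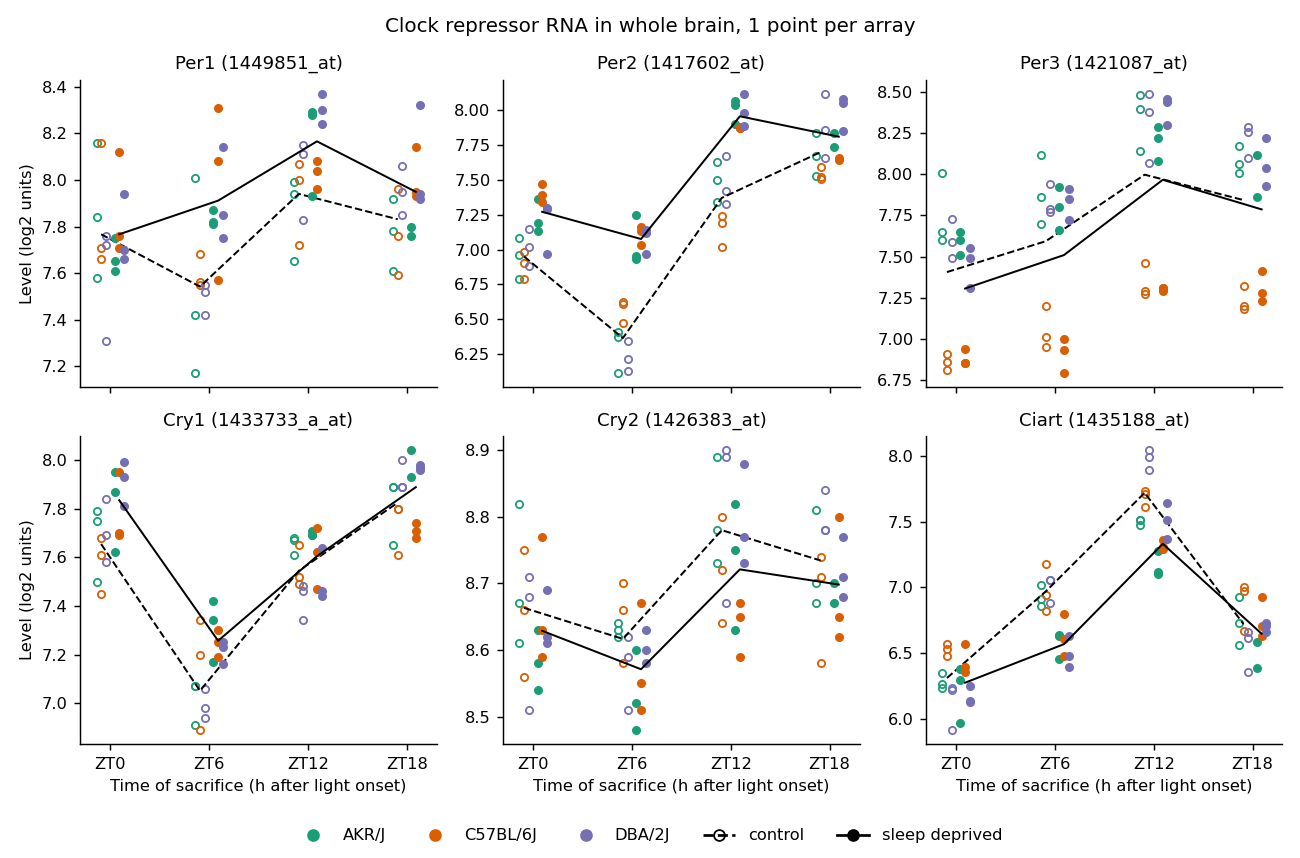
Log2 level of each clock repressor on its probe set of highest mean against time of sacrifice in hours after light onset, 1 point per array, coloured by strain; open points and dashed lines are controls, filled points and solid lines sleep-deprived mice, and lines join the means of the 3 strains. Per2 and Cry1 were lowest at ZT6 in both conditions, Ciart rose to a single high point at ZT12, and the strains separate on Per3.

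A 24 h wave was drawn through the 4 mean levels of each probe set to give a peak time and an amplitude, which is the distance from the wave's middle to its peak. With times 6 h apart these are summaries of 4 means, with delta-method standard errors. In controls Ciart peaked at 11.3 ± 0.156 h (SE) with an amplitude of 0.71 ± 0.029. The 6 Per3 probe sets peaked between 11 ± 0.445 h (1441445_at) and 13.7 ± 0.648 h (1460662_at). These were followed by Cry2 at 15 ± 0.881 h, Per1 at 15.9 ± 1.03 h, and the 3 Per2 probe sets at 16.2 ± 0.206 h, 16.4 ± 0.284 h and 16.8 ± 0.16 h. Cry1 was last at 18.5 ± 0.253 h, with an amplitude of 0.39 ± 0.026. The order from Ciart and Per3 to Per2 to Cry1 exceeds the standard errors, whereas the place of Cry2 and Per1 beside Per2 does not, their amplitudes being 0.083 ± 0.019 and 0.17 ± 0.046.

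After sleep deprivation Per2, Per1 and Cry1 were higher and Ciart and part of Per3 lower than in controls killed at the same time. Averaged over the 12 pairs of strain and time, 9 of the 13 probe sets were called, 5 higher and 4 lower, where 17.3% of all probe sets were called (8.31% higher and 9% lower). The median difference over the 13 was -0.04 against -0.0024 over all probe sets. Higher were Per2 (0.43 ± 0.030 SE, 0.26 ± 0.031 and 0.25 ± 0.032 on 1417602_at, 1457350_at and 1417603_at), Per1 (0.18 ± 0.046, adjusted p = 0.0031) and Cry1 (0.13 ± 0.026, adjusted p = 0.00022). Lower were Ciart (-0.22 ± 0.029, adjusted p = 2.52e-08) and 3 Per3 probe sets, all from the group without Per3's RefSeq mRNA as annotated target (-0.16 on 1458176_at, -0.13 on 1441445_at and -0.12 on 1442243_at). Cry2 (-0.04 ± 0.019, 95% interval -0.08 to -0.0047, adjusted p = 0.13) and the 3 probe sets designed on Per3's RefSeq mRNA (-0.07, -0.05 and 0.04) were not called. With array weights Cry2 was called lower (-0.0489, adjusted p = 0.0326).

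The number of members called differed between times of sacrifice, as did the share of all probe sets called. At ZT0, 1 of the 13 probe sets was called (1.71% of all probe sets). At ZT6 it was 9 (10.4%), at ZT12 it was 5 (9.75%) and at ZT18 none (0.0777%). Per3 on 1442243_at was the 1 with an unadjusted p under 0.05 in limma's test at ZT18, and no share of all probe sets was counted at that threshold. With array weights, or with probe sets above the median level alone, 3 were called at ZT0, and with the 6 spike-in arrays as a block 2.

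Per2 was the member with the largest response. At ZT6 its sleep-deprived arrays on 1417602_at were at 6.93, 7.12 and 7.25 (lowest, median, highest of 9), against 6.11, 6.37 and 6.62 in controls. The conditions did not overlap at that time, and the mean was 1.64-fold higher (0.71 ± 0.059, adjusted p = 4.22e-14). At ZT12 the sleep-deprived arrays were at 7.87, 7.90 and 8.12 and the controls at 7.02, 7.34 and 7.67, again with no overlap (0.59 ± 0.059, 1.5-fold, adjusted p = 3.28e-11). At ZT0 the ranges 6.97 to 7.47 and 6.79 to 7.15 overlapped and the difference was 0.32 ± 0.059 (1.25-fold, adjusted p = 0.00042). At ZT18 sleep-deprived arrays ran from 7.64 to 8.08 and controls from 7.51 to 8.12, with a difference of 0.11 ± 0.061 (95% interval -0.01 to 0.23, adjusted p = 0.90). Within strain and time the sleep-deprived mean was higher in 12 of 12 pairs of groups on this probe set, and all sleep-deprived arrays lay above all controls in 9 of them. Neither count was made over all probe sets. Cry2, which was called at no time, had all sleep-deprived arrays below all controls in 2 of 12 pairs. The other Per2 probe sets were called at the same times but ZT0, with 0.45 and 0.35 at ZT6 and 0.42 and 0.33 at ZT12.

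Per1, the period gene most closely tied to acute induction, was called at ZT6 alone. Sleep-deprived arrays were at 7.57, 7.85 and 8.31 there and controls at 7.17, 7.55 and 8.01, so that the conditions overlapped (0.37 ± 0.091, 1.29-fold, adjusted p = 0.0036). Without the 6 arrays that stood apart the difference was 0.31 (adjusted p = 0.0099). At ZT12 the medians were 8.24 and 7.99 and the difference of 0.23 ± 0.091 was not called (adjusted p = 0.11). It was called with those 6 arrays left out or as a block (adjusted p = 0.018 and 0.016). None of those arrays is from ZT12, and the difference stayed at 0.228 in both settings. Array weights (0.225, adjusted p = 0.0371) and a fit of the compared groups alone (0.228, adjusted p = 0.0368) also called it.

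Per3 differed between its probe sets. On 1441445_at it was lower by -0.32 ± 0.085 at ZT6 (adjusted p = 0.0080) and by -0.21 ± 0.085 at ZT12, which was not called (adjusted p = 0.12). On 1458176_at it fell by 0.19 ± 0.060 at ZT6 (adjusted p = 0.024) and 0.22 ± 0.060 at ZT12 (adjusted p = 0.0086). On 1442243_at it fell by 0.16 ± 0.054 at ZT6 (adjusted p = 0.039). The ZT6 call of 1458176_at was lost without any 1 of 6 arrays, most of all the third control AKR/J array at ZT6 (-0.14, adjusted p = 0.10). That of 1442243_at was lost without any 1 of 11 arrays, most of all the third control DBA/2J array at ZT6 (-0.13, adjusted p = 0.13), and without the 6 spike-in arrays (-0.11, adjusted p = 0.40). On the 3 probe sets designed on Per3's RefSeq mRNA no time was called, and the largest difference was -0.12 ± 0.080 (1460662_at at ZT18).

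Cry1 was called at ZT6, where sleep-deprived arrays ran from 7.16 through a median of 7.25 to 7.41 and controls from 6.89 through 7.05 to 7.34 (0.21 ± 0.052, 1.15-fold, adjusted p = 0.0042). At ZT0 its difference of 0.18 ± 0.052 missed the threshold (adjusted p = 0.060) and was called without any 1 of 8 arrays, among them the third sleep-deprived AKR/J array at ZT0 (0.21, adjusted p = 0.020). Without the 6 spike-in arrays the difference was 0.141 (adjusted p = 0.252), and with them as a block 0.159 (adjusted p = 0.0664), neither called. At ZT12 and ZT18 it was 0.06 ± 0.052 and 0.06 ± 0.054. Cry2 was called at no time, with differences from -0.06 to -0.03.

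Ciart went the other way from Per2 at the same times. Sleep-deprived arrays were at 6.40, 6.61 and 6.80 at ZT6, below all controls at 6.82, 6.94 and 7.18 (-0.40 ± 0.058, 0.76-fold, adjusted p = 8.70e-07). At ZT12 they were at 7.10, 7.31 and 7.64 against 7.47, 7.71 and 8.04, a range that overlaps across strains (-0.39 ± 0.058, adjusted p = 1.54e-06). Within each strain, however, all sleep-deprived arrays lay below all controls at both times, a separation that was not counted over all probe sets. At ZT0 (-0.04 ± 0.058) and ZT18 (-0.07 ± 0.060) Ciart was not called. Its mean was lower in 10 of the 12 pairs of strain and time and higher in 2, both in DBA/2J, at ZT0 (0.05 ± 0.101) and ZT18 (0.16 ± 0.101), and neither was called. At ZT18 in DBA/2J all sleep-deprived arrays lay above all controls, by a margin of 6.662 against 6.659.

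**Figure D2:**
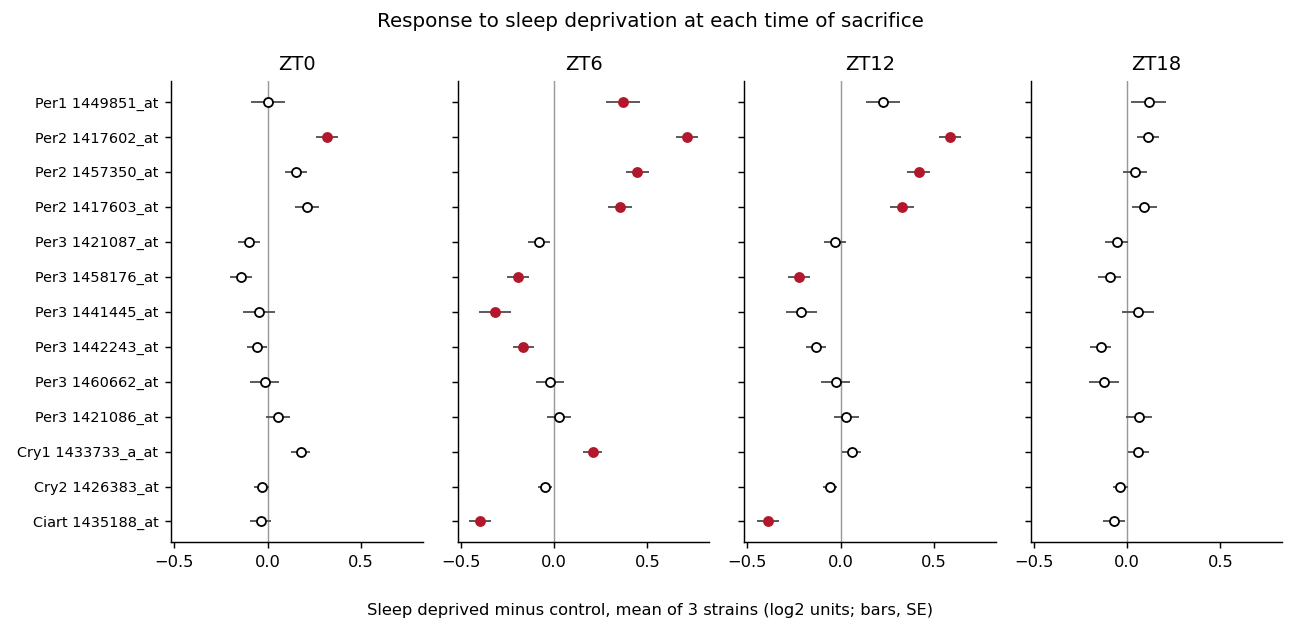
Difference between sleep-deprived and control mice in log2 units (mean of the 3 strains, bars are standard errors) for the 13 probe sets, in 1 panel per time of sacrifice; filled red points are called, open points are not. The 3 Per2 probe sets lie to the right at ZT6 and ZT12 (0.33 to 0.71) and Ciart to the left (-0.40 and -0.39), and at ZT18 no probe set is called.

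The dependence on time was tested as such. The time by sleep deprivation test called 3 of the 13 probe sets, against 1.4% of all: Per2 on 1417602_at (adjusted p = 6.01e-06) and 1457350_at (0.0040), and Ciart (0.0023). The third Per2 probe set (0.34), Per1 (0.41), Cry1 (0.57), Cry2 (0.99) and the 6 Per3 probe sets (0.28 to 0.99) were not called. With array weights Per1 was called too, in this test (0.021) and in that of the 24 h wave (0.0274).

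The same members were called when only the 24 h wave was compared between conditions (3 of 13, background 1.8%). Each sleep-deprived mean came from mice kept awake over a different window, the hours up to their own time of sacrifice. The sleep-deprived wave therefore joins separate deprivations and does not follow a daily rhythm after any given one. A difference in peak or amplitude describes these means, and a shift of the clock was not tested. Per2 on 1417602_at peaked at 15.1 ± 0.227 h after sleep deprivation in place of 16.8 ± 0.16 h, a difference of -1.7 ± 0.277 h (95% interval -2.26 to -1.15), and its amplitude was 0.50 in place of 0.70 (adjusted p = 1.55e-06). On 1457350_at the peak difference was -1.69 ± 0.319 h and the amplitudes were 0.49 and 0.56 (adjusted p = 0.0014). In the 3 strains the peak difference of 1417602_at was -1.63 ± 0.464 h in AKR/J, -1.74 ± 0.663 h in C57BL/6J and -1.74 ± 0.388 h in DBA/2J. The third Per2 probe set, 1417603_at, was not called (adjusted p = 0.21). Its peak differed by -1.18 ± 0.453 h over the strains, by -1.74 ± 0.739 h in AKR/J and -1.7 ± 0.693 h in DBA/2J, but by -0.194 ± 1.09 h in C57BL/6J, where its amplitude was 0.34 after sleep deprivation and 0.23 in controls. Behind the earlier wave stands a changed order of times: in controls the mean was highest at ZT18, and in sleep-deprived mice at ZT12, where ZT12 and ZT18 were not called as different (-0.15, adjusted p = 0.55; 0.289% of all probe sets called).

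Ciart's peak differed in the opposite direction, at 12.3 ± 0.218 h in place of 11.3 ± 0.156 h, a difference of 0.954 ± 0.268 h (95% interval 0.417 to 1.49), and its amplitude was 0.53 in place of 0.71 (adjusted p = 0.00071). By strain the peak difference was 0.264 ± 0.548 h in AKR/J, 0.873 ± 0.546 h in C57BL/6J and 1.47 ± 0.349 h in DBA/2J. The amplitude differed by -0.133, -0.137 and -0.28 in the same order. For both, the 95% interval excluded 0 in DBA/2J alone. The test of strain by time by sleep deprivation did not call Ciart (adjusted p = 0.62). The daily range of Ciart was 2.08-fold after sleep deprivation and 2.65-fold in controls, and that of Per2 1.84-fold and 2.53-fold.

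For the other members the wave was not called as different. Per1's peak was at 12.4 ± 0.9 h in place of 15.9 ± 1.03 h (difference -3.58 ± 1.37 h, adjusted p = 0.37), but the difference was -2.09 h without the 6 spike-in arrays. Cry1's was at 19.3 ± 0.297 h in place of 18.5 ± 0.253 h (0.787 ± 0.391 h, 95% interval 0.0036 to 1.57, adjusted p = 0.40). Per3 on 1421087_at was at 13.5 h in both (95% interval of the difference -0.956 to 0.949 h). On 1441445_at its peak was at 13.3 h in place of 11 h, a difference of 2.27 ± 0.736 h whose interval of 0.794 to 3.75 h lies above 0, though the wave test was not called (adjusted p = 0.15). The other 4 Per3 probe sets differed by -0.824 to 0.518 h, each with an interval that includes 0, and Cry2 was at 15.6 and 15 h with an interval of -1.95 to 3.2 h.

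**Figure D3:**
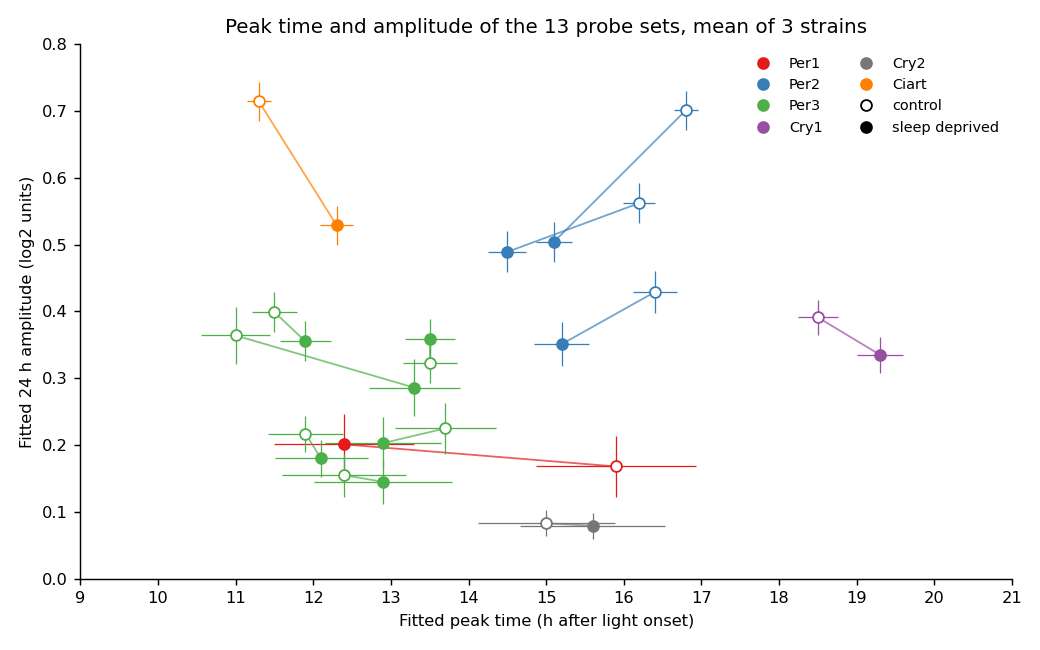
Amplitude in log2 units against peak time in hours after light onset of the 24 h wave of the 13 probe sets (mean of 3 strains, bars are standard errors); open points are controls, filled points sleep-deprived mice, and a line joins the 2 points of a probe set. The filled Per2 points lie to the left of and below the open ones (15.1 and 16.8 h on 1417602_at). The filled Ciart point lies to the right of and below the open one (12.3 and 11.3 h). Cry1 lies farthest to the right at 18.5 and 19.3 h. Each filled point joins means from different deprivation windows.

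Time of day remained visible in sleep-deprived mice: 12 of the 13 probe sets were called over the 4 times, against 1.42% of all, with Cry2 at an adjusted p of 0.057. Cry2 was called as well under 5 alternatives, at adjusted p from 0.00566 (array weights) to 0.0404 (trended prior). The calls of Per1 (0.049) and Per3 on 1421086_at (0.048) lay at the threshold and were lost without any 1 of 51 and of 41 arrays, at adjusted p up to 0.115 and 0.136. The largest of these came without a sleep-deprived AKR/J array at ZT12 (the second for Per1 and the first for 1421086_at).

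Because deprivation lasted 6 h and the times are 6 h apart, sleep-deprived mice can also be set against controls killed when the deprivation began, a comparison chosen after the data had been seen. It asks how far the RNA had moved during the hours awake, in different mice, and it uses the sleep-deprived arrays of the preceding comparison again. For deprivation from ZT0 to ZT6 Per2 was not called against its starting level: the sleep-deprived mice at ZT6 differed from controls at ZT0 by 0.12 ± 0.059, 0.06 ± 0.061 and 0.11 ± 0.064 on the 3 probe sets, none of them called, whereas controls fell by 0.59 over those hours on 1417602_at. The interval for that probe set, 0.0069 to 0.24, does not reach 0. Over the same hours Cry1 fell by 0.40 ± 0.052 in sleep-deprived mice and by 0.61 in controls, and Ciart rose by 0.26 ± 0.058 and by 0.66. In this comparison 3 of the 13 probe sets were called (0.904% of all), Cry1, Ciart and Per3 on 1458176_at (0.32).

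From ZT6 to ZT12 Per2 rose by 1.59 ± 0.059 in sleep-deprived mice, 3.02-fold, against 1.01 in controls, and Per1 by 0.62 ± 0.091 against 0.39. Ciart rose by 0.36 ± 0.058 against 0.75. For these hours 9 of the 13 were called, all higher (12.9% of all called, 6.27% higher). From ZT12 to ZT18 Per2 rose by 0.44 ± 0.061 in sleep-deprived mice and by 0.33 in controls, Cry1 by 0.34 and 0.28, and Ciart fell by 1.07 and 1.00 (8 of 13 called, 11.5% of all). From ZT18 to ZT0 Per2 fell by 0.43 ± 0.059 with sleep deprivation, while the controls of ZT18 and ZT0 lay 0.75 apart, and Ciart fell by 0.44 where its controls lay 0.41 apart (9 of 13 called, all lower, against 0.469% of all called and 0.189% lower). Cry1 was not called over those hours with sleep deprivation (0.01 ± 0.052, adjusted p = 0.99).

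Strains were compared in the response to sleep loss. On average over the 4 times, 6 of the 13 probe sets were called in AKR/J (5.85% of all), 4 in C57BL/6J (6.45%) and 5 in DBA/2J (6.9%). Per2 on 1417602_at was 0.41 ± 0.052, 0.47 ± 0.051 and 0.41 ± 0.051 higher and Ciart -0.25 ± 0.052, -0.23 ± 0.050 and -0.19 ± 0.050 lower in the 3 strains, and both were called in each. Per1 was called in DBA/2J (0.24 ± 0.079, adjusted p = 0.048) and not in AKR/J (0.11) or C57BL/6J (0.19). With the 6 spike-in arrays as a block it was called in AKR/J too (0.194, adjusted p = 0.046), and with array weights in C57BL/6J (0.216, adjusted p = 0.0192) and not in DBA/2J (0.186, adjusted p = 0.0518). Cry1 was called in AKR/J (0.16 ± 0.046, adjusted p = 0.024) and not in C57BL/6J (0.08) or DBA/2J (0.14, adjusted p = 0.051). This order of the strains was not stable: the AKR/J call was lost under 4 alternatives (adjusted p from 0.0596 with the spike-in block to 0.122 without the 6 arrays), and DBA/2J gained a call under 8 (adjusted p from 0.0106 with array weights to 0.0442 with the trended prior). Both calls also depended on single arrays. Per1's was lost without any 1 of 40 arrays, most of all the first sleep-deprived DBA/2J array at ZT18 (0.21, adjusted p = 0.115), and Cry1's without any 1 of 6, most of all the first sleep-deprived AKR/J array at ZT18 (0.15, adjusted p = 0.089). The test of the difference between strains called none of the 13 (0.0222% of all, lowest adjusted p 0.60), and the test of strain by time by sleep deprivation none either (0.0111% of all, lowest adjusted p 0.28). In the first of these tests 3 had an unadjusted p under 0.05, a threshold at which the share of all probe sets was not counted.

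Within single strains and times, all of the 21 calls among 156 tests were of Per2 or Ciart, with 3 arrays a group and 2 in sleep-deprived AKR/J at ZT18. In AKR/J they were 4 at ZT6 (2.58% of all probe sets) and 2 at ZT12 (1.71%), in C57BL/6J 1 at ZT0 (0.331%), 3 at ZT6 (7.47%) and 3 at ZT12 (2.14%), and in DBA/2J 4 at ZT6 (3.63%) and 4 at ZT12 (2.94%). No member was called at ZT0 in AKR/J (0.215%) or DBA/2J (0.111%), nor at ZT18 in the 3 strains (0%, 0.00222% and 0.00444%). When each fit held the compared groups alone, 10 were called. For Per2 on 1417602_at at ZT6 the sleep-deprived arrays read 6.93, 7.25 and 6.95 in AKR/J against 6.37, 6.11 and 6.41 in controls, 7.13, 7.03 and 7.16 against 6.62, 6.47 and 6.61 in C57BL/6J, and 6.97, 7.12 and 7.14 against 6.13, 6.34 and 6.21 in DBA/2J. All 3 strains were separated without overlap, with differences of 0.75, 0.54 and 0.85, and such separation was not counted over all probe sets. At ZT0 the C57BL/6J arrays read 7.47, 7.39 and 7.34 against 6.79, 6.90 and 6.98, and this was the sole strain called at that time (0.51 ± 0.102, adjusted p = 0.0065); in DBA/2J 7.30, 6.97 and 7.29 overlapped with 6.88, 7.15 and 7.02. Ciart at ZT12 read 7.64, 7.51 and 7.37 in sleep-deprived DBA/2J against 8.04, 7.89 and 7.99 in controls (-0.47 ± 0.101, adjusted p = 0.0025), and 7.31, 7.36 and 7.29 against 7.73, 7.61 and 7.71 in C57BL/6J (-0.37 ± 0.101, adjusted p = 0.036).

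Amplitudes in undisturbed mice were compared between strains. Ciart's amplitude was 0.95 ± 0.050 in DBA/2J, 0.61 ± 0.050 in AKR/J and 0.58 ± 0.050 in C57BL/6J, with peaks at 11.1, 11.4 and 11.7 h. Per2's on 1417602_at was 0.86 ± 0.051, 0.74 ± 0.051 and 0.50 ± 0.051, with peaks at 17, 16.6 and 17 h. Neither was called in the test of strain differences of the 24 h wave (adjusted p = 0.055 and 0.12; 0 of 13 called, 0.0111% of all) or of strain by time (0.066 and 0.11; 0 of 13, 0.0222%). At an unadjusted p under 0.05 the wave test counts 7 of the 13 and the strain by time test 7. The share of all probe sets at that unadjusted threshold was not counted, so these 2 counts have no background here. Ciart crossed the threshold of the wave test under quantile normalization (0.049), with probe sets above the median level alone (0.029) and with the trended prior (0.031). It did so too with array weights (0.021), the replicate block (0.047) and the spike-in block (0.048), but not with median centring, smaller fits or the 6 spike-in arrays left out. Ciart was also called without any 1 of 6 arrays, such as the third control DBA/2J array at ZT0 or the first control C57BL/6J array at ZT6. With array weights the wave test called Per2 as well, on 1417602_at (0.018) and 1417603_at (0.042). On Per2's 1457350_at C57BL/6J peaked at 17.6 ± 0.375 h, 2.08 ± 0.51 h after AKR/J, whereas on 1417602_at the 2 strains were 0.437 ± 0.467 h apart.

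The levels of Per3 differed more between strains than those of any other member. In controls 7 of the 13 probe sets were called over the 3 strains (32.8% of all): 5 of the 6 Per3 probe sets, Ciart and Per2 on 1417603_at. Between pairs of strains 6 were called for C57BL/6J against AKR/J (22.9% of all), 1 for DBA/2J against AKR/J (17.3%) and 6 for DBA/2J against C57BL/6J (23.2%). On 1421087_at the control arrays (lowest, median and highest of 12) read 7.60, 8.03 and 8.48 in AKR/J, 6.81, 7.19 and 7.46 in C57BL/6J, and 7.49, 8.0 and 8.49 in DBA/2J. No C57BL/6J array reached the lowest array of the other strains, and their mean was -0.89 ± 0.051 from AKR/J (0.54-fold, adjusted p = 4.77e-22), while DBA/2J and AKR/J differed by -0.03 ± 0.051. The other 2 probe sets designed on Per3's RefSeq mRNA showed the same pattern, with C57BL/6J at -1.36 ± 0.066 (1460662_at) and -0.87 ± 0.056 (1421086_at) from AKR/J.

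The Per3 probe sets without that RefSeq mRNA as annotated target did not. On 1458176_at C57BL/6J was the highest strain (0.44 ± 0.052 above AKR/J, adjusted p = 3.45e-10), with arrays at 7.26, 7.80 and 8.18 against 6.75, 7.38 and 7.78 in AKR/J and 6.75, 7.30 and 7.75 in DBA/2J, ranges that overlap across the day. On 1441445_at DBA/2J was the low strain, with arrays at 5.17, 5.99 and 6.27 against 6.67, 7.02 and 7.41 in AKR/J, and the ranges did not overlap (-1.18 ± 0.073, 0.44-fold, adjusted p = 2.41e-20). On 1442243_at no strain difference was called (adjusted p = 0.36). The strain differences of Per3 thus changed sign between probe sets of the same gene, and no sequence of these probes or of the strains was used here. Different RNA levels and different binding of the strains' RNA to a probe set cannot be told apart here.

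Time of day was called in C57BL/6J controls on 9 of the 13 probe sets (1.65% of all), among them 4 of the 6 of Per3, and not on 1460662_at (adjusted p = 0.94) and 1421086_at (0.91), where the C57BL/6J arrays ran from 4.56 to 5.12 and from 4.15 to 4.66. The amplitude there was 0.029 ± 0.066 on 1460662_at against 0.32 ± 0.066 in AKR/J and 0.33 ± 0.066 in DBA/2J, where the strain by time test was not called (adjusted p = 0.57). On 1421087_at, where C57BL/6J was also low, its amplitude was 0.26 ± 0.051 against 0.31 ± 0.051 and 0.41 ± 0.051.

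**Figure D4:**
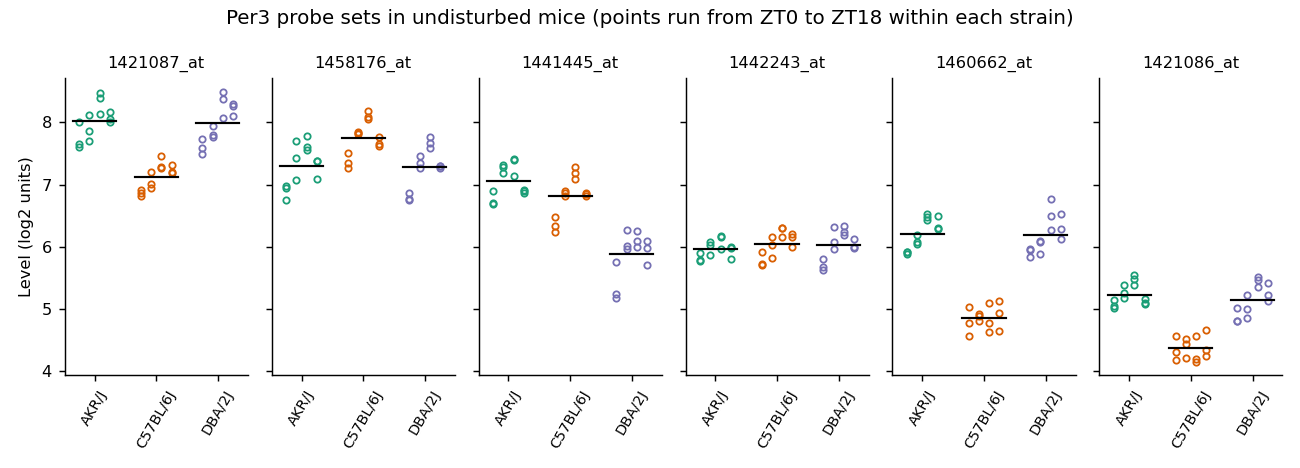
Log2 level of the 6 Per3 probe sets in control arrays, by strain, 1 point per array running from ZT0 to ZT18 within each strain, with a black line at the mean of the 12 arrays. C57BL/6J is lowest on 1421087_at, 1460662_at and 1421086_at, highest on 1458176_at, and DBA/2J is lowest on 1441445_at; heights of different probe sets are not comparable.

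The remaining strain differences were small. Ciart was 0.16 ± 0.050 higher in C57BL/6J than in AKR/J. Its test over the 3 strains (adjusted p = 0.032) lost the call without any 1 of 8 arrays, most of all the first control C57BL/6J array at ZT6 (0.103). The call was lost too without the 6 spike-in arrays (adjusted p = 0.0513). Per2 on 1417603_at was 0.16 ± 0.055 higher in DBA/2J than in C57BL/6J, and its test over the strains (adjusted p = 0.030) lost the call without any 1 of 5 arrays, most of all the second control C57BL/6J array at ZT0 (0.085). Quantile normalization also removed this call (adjusted p = 0.0555). Per1, Cry1 and Cry2 were not called between any 2 strains, with differences of at most 0.04 in size.

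The 13 probe sets did not share 1 profile over the 24 group means. The 3 Per2 probe sets correlated at 0.908 to 0.954 with each other, and the 3 designed on Per3's RefSeq mRNA at 0.936 to 0.967. Per3 on 1442243_at and 1458176_at followed Ciart (0.834 and 0.796) more than they followed 1421087_at (0.33 and -0.14). Per2 on 1417602_at followed Per1 (0.769) and Cry1 (0.725), and Ciart less (0.19). These are descriptions across 24 means that share strains, times and arrays.

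Among all other named genes, those whose 24 group means lay closest to each member were taken by rank of the Pearson correlation. For Per2 they were Lonrf3 (0.927), Cdh19 (0.914) and Slc38a2 (0.886), the last an amino acid transporter. For Per1 they were Slc2a1, the glucose transporter of the blood-brain barrier (0.849), Cables1 (0.847) and Tsc22d3, a glucocorticoid-induced gene (0.842). For Ciart they were the clock output gene Dbp (0.922), Pik3ip1 (0.892) and Tspan4 (0.879). For Cry1 they were Ctdsp2 and Btg1 (0.836 each) and Crispld1 (0.835), and for Cry2 Maco1 and Tef (0.82 each) and Mthfd1l (0.777), of which Tef is a D-box factor. For Per3 on 1421087_at they were Srsf2 (0.921), Patj (0.902) and Fam76a (0.895), and of these neither Srsf2 nor Patj was called for time of day in controls (adjusted p = 0.58 and 0.18).

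The other genes of the clock were taken from lists of their roles, and their counts stand beside the 8.31% of all probe sets that were called higher and the 9% called lower. Of 4 activators 2 were higher after sleep deprivation and none lower, Arntl, which encodes BMAL1 (0.18 ± 0.018), and Npas2, a relative of Clock (0.16 ± 0.023), while Clock itself was at -0.01. Of 4 measured Rev-erb and Ror receptors, which act on Arntl and Cry1 through other elements, 3 were lower and none higher, with Nr1d1 (REV-ERB alpha) at -0.17 ± 0.036, Rora at -0.07 ± 0.017 and Nr1d2 at -0.05 ± 0.019. Of 6 output factors 2 were higher, Nfil3 (0.34 ± 0.026) and Bhlhe40 (0.17 ± 0.020), and 2 lower, Dbp (-0.42 ± 0.028) and Tef (-0.05 ± 0.017). The median difference was 0.083 for the activators, -0.078 for the receptors and -0.055 for the output factors, against -0.0024 over all probe sets. Of 11 measured kinases, ubiquitin ligases and deubiquitinases that act on PER and CRY proteins, none was higher and 2 were lower, Usp2 (-0.09 ± 0.022), a deubiquitinase, and Prkaa2 (-0.07 ± 0.019), a subunit of AMP kinase. Of 6 further partners of the repressor complex 1 was lower, Tipin (-0.31 ± 0.024), which binds Timeless. Both shares lie near the 17.3% of all probe sets called in either direction. A list of 5 genes that respond to neuronal activity or glucocorticoids, as Per1 does, was higher throughout: Arc at 0.95 ± 0.053, Fos at 0.79 ± 0.048, Sgk1 and Tsc22d3 at 0.40, and Fkbp5 at 0.23 ± 0.030. At ZT6 all 5 of these were called (10.4% of all probe sets) and at ZT18 1 of the 5 (0.0777%).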

How the data were processed

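RNA of pooled whole mouse brain was hybridised to 71 Affymetrix arrays. The values the authors deposited are on a log2 scale and come from RMA (per the submitters' processing notes). Its version and settings are not given in these sources. RMA equalises the distribution of signal between arrays, so differences are relative to all probe sets. Array medians were 5.65 to 5.71. Of 45101 probe sets 64 controls were left out. By the platform annotation 34945 of the rest had 1 gene symbol, 932 several and 9160 none. Of these probe sets 34741 were matched by Entrez ID to a RefSeq list (GRCm38.p6), used for names and chromosomes. The same list told which design targets in the platform annotation are RefSeq mRNAs of their gene. A linear model of the 24 groups was fitted with limma 3.58.1 in R 4.3.3 (package data.table, 1.17.8) on the deposited log2 values, with Benjamini-Hochberg adjustment over 45037 probe sets and a threshold of 0.05. The 24 h wave was computed from group means. Scripts were tested on simulated data, and figures drawn with matplotlib 3.10.9 (Python 3.11.15, pandas 2.3.3, numpy 2.4.6). The members and lists were chosen with earlier results of these data known. Named are all members, the 3 genes that correlate best with each member gene's probe set of highest mean, and up to 4 genes of each clock list. Replicate numbers did not pair arrays: the mean correlation of deviations was 0.0084 over 805 pairs of equal number and -0.0042 over 1610 others. Alternatives were median centring, quantile normalization, a filter on low levels, a trended prior, array weights, replicate and spike-in blocks, smaller fits, 1 probe set or the mean per gene, linear values for peak times, and leaving out each array.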

Additional observations from a re-analysis of the deposited data

Results flagged for a closer look

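The response to sleep deprivation differed between times of day for 3 probe sets by the test of the difference itself (limma F test, adjusted over all probe sets). For Per2 on 1417602_at the adjusted p was 6.008e-06, with the difference from controls running from 0.11 at ZT18 to 0.71 at ZT6. For Per2 on 1457350_at it was 0.004017, with differences from 0.04 at ZT18 to 0.45 at ZT6. For Ciart it was 0.002276, with differences from -0.40 at ZT6 to -0.04 at ZT0. The 24 h wave differed between sleep-deprived and control mice for the same 3 probe sets, at adjusted p of 1.549e-06 and 0.001362 for Per2 and 0.0007128 for Ciart. All 6 tests kept their calls without any 1 of the 71 arrays, though each wave test is contained in the time test of the same probe set.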

How the results depend on the processing

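No result changed direction past the threshold under any alternative run. Of 6696 single values under the alternatives other than leaving out an array, 70 lost a call, 125 gained one and 15 moved without a test. The other 6486 kept their side of the threshold or, for peaks and amplitudes, stayed within the standard error of the main value. Differences not called either way could change sign and still count among these. An example is Per3 on 1441445_at at ZT0, at -0.0451 and, without the 6 spike-in arrays, 0.0449.

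Counts of called probe sets moved as follows. With array weights, 5 in place of 3 were called for the 24 h wave between conditions, 3 in place of 0 for the wave between strains and for strain by time, 3 in place of 1 at ZT0 and 7 in place of 4 in C57BL/6J. Quantile normalization gave 1 in place of 0 for both strain tests. Keeping only probe sets above the median level gave 1 for both strain tests and 3 at ZT0, and the trended robust prior gave 1, 1 and 2. The 6 spike-in arrays as a block gave 1 for the wave between strains and 2 at ZT0, and moved Per1's peak difference from -3.58 to -2.09 h, as leaving them out did (-2.09 h). With only the compared groups fitted, 10 in place of 21 were called over single strains and times, 3 in place of 7 for time in sleep-deprived AKR/J and 5 in place of 8 in sleep-deprived C57BL/6J. The cause was not tested.

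With 1 probe set per gene (at most 6, so fewer by construction), the counts were 4 on average over strains and times, 4 at ZT6, 2 at ZT12, 3 in AKR/J, 2 in C57BL/6J, 3 in DBA/2J and 12 over single strains and times. They were 14 against onset controls, 6 for time in controls and 5 in sleep-deprived mice, 24 and 20 for pairs of times, and 2 for strain. For C57BL/6J against AKR/J they were 2, for DBA/2J against AKR/J 0 and for DBA/2J against C57BL/6J 1. For time within strains they were 4, 4 and 5 in controls and 4, 4 and 4 in sleep-deprived mice (AKR/J, C57BL/6J, DBA/2J). With the mean of a gene's probe sets, the amplitude difference was -0.116 for Per2 and -0.0188 for Per3, and Per3's peak difference 0.603 h.

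With the replicate block, 1 probe set in place of 0 was called for the wave between strains (Ciart, adjusted p = 0.0472). In that fit Cry1 in DBA/2J gained a call (0.0438), and Per1 in DBA/2J (0.0523) and time of day in sleep-deprived mice for Per1 (0.0573) and Per3 on 1421086_at (0.0542) lost theirs. The block changed no other call named in the text.

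Leaving out 1 array at a time gave 1 to 3 called at ZT0, 7 to 9 at ZT6, 5 to 6 at ZT12, 0 to 1 for both strain tests of time and 9 on average over strains and times. The peak difference ran from -1.79 to -1.6 h for Per2, 0.836 to 1.07 h for Ciart and -4.24 to -3.07 h for Per1. Precision is limited by 3 arrays a group and 4 times a day.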
